A study of Xenopus laevis with 4 samples.

Results

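The genes described here build the transport vesicles that move proteins between the endoplasmic reticulum (ER), the Golgi, the endosomes and the cell surface. They were measured in hindlimb pseudoblastemas of N1 transgenic Xenopus laevis tadpoles and in blastemas of their wild-type (WT) siblings. Members were taken by a rule on gene symbols that uses no measured value, though the rule was set with earlier results of these data known. It takes Rab GTPases, Sec and Sar1 proteins, coatomer, Arf, Tmed, syntaxin, Vamp, Vps, sorting nexin and AP adaptor symbols, and leaves out rab27a by name. The choice gave 193 of the 15491 probesets tested, which stand for 146 gene symbols. X. laevis is an allotetraploid whose duplicated gene copies (homeologs) carry the suffixes L and S, and with homeologs joined the members came to 125 genes. A probeset is a group of short array probes that together give 1 signal, and 33 of the gene copies had several.

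N1 is a line with a single insertion, in which the coding sequence of Noggin, a secreted inhibitor of bone morphogenetic proteins (BMPs), stands under an Hsp70 heat shock promoter, next to GFP under a lens gamma-crystallin promoter. All tadpoles came from the same mating. Both N1 and WT tadpoles were heat shocked before amputation and on the following days, so that the groups differ in the transgene and not in the heat. Hindlimb buds were cut at the future ankle at NF stage 52, and tissue was taken 3 days later. Each of the 4 arrays, 2 of N1 and 2 of WT, was hybridised with RNA from 1 pool of 20 pseudoblastemas or blastemas. The p-values therefore measure the spread between pools of siblings.

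Newly made secreted and membrane proteins enter the ER through the Sec61 channel. COPII-coated vesicles, assembled by the GTPase Sar1, carry them to the Golgi, and COPI vesicles, assembled by Arf GTPases from the coatomer complex, carry escaped proteins and recycling receptors back. Rab GTPases give each membrane its identity and recruit the factors that move and tether vesicles, and SNAREs drive fusion. AP adaptors with clathrin, sorting nexins, the retromer and the ESCRT complexes then sort cargo in the Golgi and endosomes. Blastema cells and the wound epidermis use this route to export matrix, growth factors and receptors.

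Signals were on the linear MAS5 scale, with a trimmed mean near 500 on every array, and differences are given as log2 of N1 minus WT. The median probeset of the whole array had a signal of 165, and 132 members reached that level by their mean log2 signal while 61 lay below it. These are called the brighter and dimmer members. The replicate arrays correlated at 0.942 for N1 and 0.953 for WT over all probesets on the log2 scale, and pairs across the groups at 0.931 to 0.951. On the N1 arrays the nog.L probeset for Noggin read 75.6 and 52.2, against 91.8 and 95.5 on the WT arrays, but it does not check the labels, since it was not known whether its probes lie in the coding sequence, the only part of Noggin in the transgene. For EGFP, which has a control probeset, the N1 arrays read 123 and 108, against 16.1 and 29.4 on the WT arrays. All of these lay below the median signal of 165, and GFP in the transgene stands under a lens promoter. They are therefore not taken as a check of the labels. The tissue label was read against limb bud mesenchyme markers, of which hand2.S, a limb transcription factor, had 3098 and 4419.6 in N1 and 3638 and 3522 in WT, while tbx4.L and fgf10.S read at most 81.8 on any array.

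The trafficking genes were close to level between N1 and WT. The median member differed by 0.08 on the log2 scale, where the median of all probesets was 0.07, and 107 members had a higher mean log2 signal in N1 and 86 a lower one. Among the 132 brighter members the median was 0.06, where that of all probesets at that level was -0.004. Of these members 55.3% were positive, against 49.5% of all probesets at that level. The median size of the difference was 0.23 for members and 0.34 for all probesets. At or above the median level these sizes were 0.18 and 0.25. Between single arrays, the median member at any level differed by 0.30 and 0.39 between N1 replicate 1 and WT replicates 1 and 2. Between N1 replicate 2 and the same WT arrays it differed by 0.24 and 0.23. It differed by 0.31 between the N1 arrays and by 0.21 between the WT arrays. For all probesets these values were 0.44 and 0.49, 0.37 and 0.41, 0.42 and 0.31. By this measure N1 replicate 2 lay nearer to both WT arrays than to N1 replicate 1, for members and for all probesets. Among the 132 brighter members 0 differed by more than 2-fold on the means, where 2.38% of all probesets at that level were more than 2-fold higher in N1 and 0.878% more than 2-fold lower. Of the 61 dimmer members 2 were higher by that much (3.28%, against 15.7% of all dimmer probesets) and 3 lower (4.92%, against 5.59%).

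With limma fitted across all probesets, 0 of the 193 members passed an adjusted p of 0.05 in either direction. The background for that test was itself small, at 0.11% of all probesets higher in N1 and 0.0129% lower. At an unadjusted p under 0.05, 9 members (4.66%) were higher and 3 (1.55%) lower, against a background of 6.82% and 4.29%. Among the 132 brighter members the counts were 7 (5.3%) and 2 (1.52%), where 8.31% and 7.02% of all probesets at that level passed. Both N1 arrays stood above both WT arrays for 39 members (20.2%, background 24.2%) and below them for 27 (14.0%, background 17.9%). Each of these shares was under that of all probesets, but they count the same members in overlapping ways. The shares without overlap are over all levels, and nothing particular to the members is read from them. The 95% interval of the difference lay within 2-fold either way for 118 members (61.1%), where the background was 37.0%, and for 111 of the 132 brighter ones (84.1%), where it was 68.6%. Leaving out 1 array at a time gave 0 to 2 adjusted calls, the 2, rab8a.S and sec63.S, arising without N1 replicate 2. The counts at an unadjusted p under 0.05 ran over these from 2 to 12 higher and 0 to 18 lower, the 18 again without N1 replicate 2 and the 0 without WT replicate 2. The shares of all probesets shifted with them: without N1 replicate 2, 15.5% of members and 17.7% of all probesets passed in either direction, and without WT replicate 2, 1.04% and 5.23%. Centring each array on its median lowered every log2 difference by the same amount and took the median of all probesets to -0.04. Positive differences smaller than this shift turned negative. At an unadjusted p under 0.05, 3 members were then higher and 7 lower, where 762 and 1028 of all 15491 probesets were. In either direction 5.18% of members and 11.6% of all probesets passed.

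**Figure D1:**
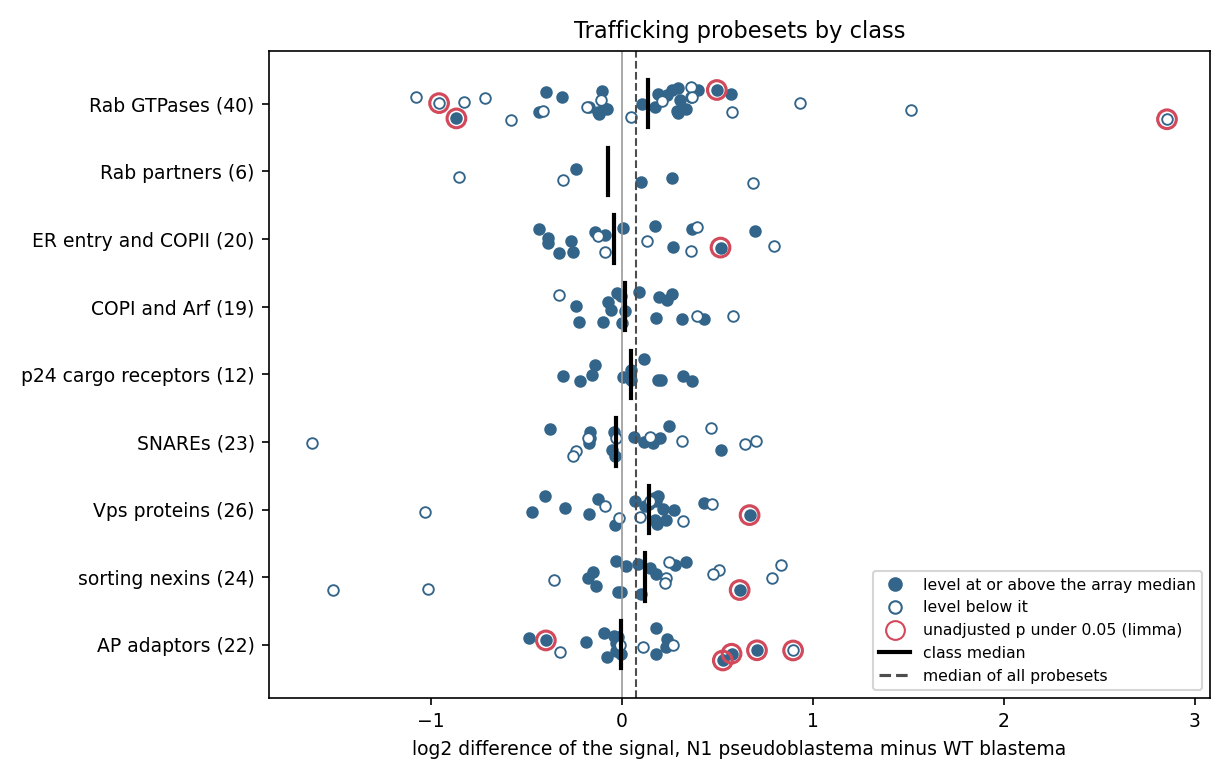
Log2 difference, N1 minus WT, of each member probeset, 1 row for each class, with brighter members filled, dimmer members open, a bar at each class median and red rings at an unadjusted p under 0.05. Class medians lie between -0.07 and 0.14, near the dashed line of all probesets at 0.07, and the point farthest from 0 is rab25.S at 2.85.

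Rab GTPases formed the largest class, with 40 probesets of 27 genes, of which 2 were higher and 2 lower at an unadjusted p under 0.05. Their median difference was 0.14, and 22 of the 40 were positive (20 under median centring or quantile normalisation). Rab5 proteins mark early endosomes and drive their fusion, and in 6 of 10 probesets of early endosome Rabs both N1 arrays lay above both WT arrays, as in 24.2% of all probesets. The rab5c.L probeset had signals of 2509.5 and 2615 in N1, against 1868 and 1763 in WT. Both N1 arrays were higher, by 1.41-fold on the means (log2 difference 0.50, SE 0.17, limma adjusted p = 0.341). Both probesets of rab5a.L were also higher on both N1 arrays, with signals of 788 and 801 in N1 against 656 and 645 in WT for the brighter (log2 0.29, adjusted p = 0.637). Rab4b, which returns receptors from early endosomes to the surface, had 473 and 444 in N1 against 366 and 383 in WT on its S copy (log2 0.29, adjusted p = 0.679).

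Other Rab5 genes differed from these: rab5b.L, a dimmer member, had 76.2 and 136 in N1 against 105 and 115 in WT, with overlap (log2 -0.11), and the probesets of rab5d.L disagreed. One rab5d.L probeset gave 572 and 315 in N1 against 597 and 1003 in WT (log2 difference -0.87, SE 0.35, adjusted p = 0.413). The other gave 963 and 759.7 in N1 against 751 and 609.6 in WT (log2 0.34, SE 0.22, adjusted p = 0.628). Each separated the groups, in opposite directions, so no direction can be given for this gene. In all, 8 of 10 probesets of 7 early endosome Rab genes were positive, with a median of 0.29. Under median centring 7 were, with a median of 0.18. Over all probesets 55.9% were positive without that centring, with a median of 0.07 (-0.04 under it). The grouping was made after results were known, so nothing particular to it is read from these counts. None passed the adjusted test, the smallest adjusted p being 0.341.

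Of 9 probesets of 5 Rab genes of the ER and Golgi, 3 were positive, with a median of -0.12, where 55.9% of all probesets were positive. The count of positive probesets was also 3 under both other scalings. Both N1 arrays lay below both WT arrays in 4 of the 9, as in 17.9% of all probesets, and above them in 0. Most of the negative probesets were repeats of the same genes: rab1a.L gave 4 of the 9, with 3 negative, and rab18.S gave 2, both negative. No direction is read from these counts. These groupings and the complexes counted here were made with results of these data known. The largest difference among them was in rab18.S, a Rab of the ER and of lipid droplets, named after its values were seen. Its signals were 96.7 and 132 in N1 against 211 and 228 in WT on one probeset (log2 -0.96, SE 0.33, adjusted p = 0.341). The second probeset gave 76.5 and 112 in N1 against 164 and 164 in WT (log2 -0.83, SE 0.37, adjusted p = 0.458). Both N1 arrays were lower on both probesets, which lay below the median level. The 4 probesets of rab1a.L, which serves the step from ER to Golgi, stood on both sides of 0, with log2 differences of -0.40, -0.12, -0.10 and 0.31.

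Among recycling and exocytic Rabs, rab11b.1.S of the recycling endosome, named as the brightest Rab probeset, was near level. It had 2119 and 2460.2 in N1 against 2433 and 2531 in WT (log2 -0.12, 95% interval -0.52 to 0.28, adjusted p = 0.847). A probeset of rab8a.S, a Rab of exocytosis and cilium growth, is given here because its N1 arrays disagreed. It had 449 and 1255 in N1 against 966 and 1062 in WT, so that 1 N1 array was the lowest of the 4 and the other the highest (log2 -0.43, SE 0.41, adjusted p = 0.742). On a second, dimmer rab8a.S probeset both N1 arrays were lower, with 108 and 106 in N1 against 119 and 171 in WT (log2 -0.41, SE 0.36, adjusted p = 0.722). Of 4 probesets of 3 late endosome and related Rab genes 1 was positive, with a median of -0.14. That was rab9a.S, which had 286 and 430.3 in N1 against 204 and 274 in WT (log2 0.57, SE 0.31, adjusted p = 0.544). The late endosome Rab rab7a.L had 451 and 329 in N1 against 438 and 386 in WT, with overlap (log2 -0.09), and its dim S copy had 11.5 and 8.61 in N1 against 15.1 and 29.2 in WT (log2 -1.08, SE 0.81, adjusted p = 0.666).

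The largest log2 difference among the members was that of rab25.S, a dim probeset named after its values were seen. Rab25 belongs to the Rab11 subfamily, is known from mammals to be largely restricted to epithelia, and recycles cargo to the apical surface. The rab25.S probeset had signals of 137 and 87.5 in N1 against 23.7 and 9.67 in WT. Both N1 arrays were higher (log2 difference 2.85, SE 0.63, limma adjusted p = 0.154), but all 4 signals lay below the median level. Detection calls were not used, so the WT signals are not known to be above background and no fold is given. Its L copy had 142 and 90.2 in N1 against 69.3 and 82.7 in WT (log2 0.58, SE 0.42, adjusted p = 0.655), also without overlap. Over 11 alternatives the rab25.S difference ranged between 1.12, with 64 added to the signals before log2, and 3.50, without WT replicate 1.

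Most epidermal marker probesets also had higher values in N1. Of 10 epidermal probesets of 6 genes, 9 were positive, 5 were higher and 1 lower at an unadjusted p under 0.05, and none passed the adjusted test. Their summed signal was 9189.6 and 9868 on the N1 arrays, against 5580.0 and 4845.6 on the WT arrays. The epithelial adhesion gene epcam.L had 3492 and 3697 in N1 against 1658 and 1462 in WT (log2 1.21, adjusted p = 0.0536), while krt19.S was lower, with 219 and 207 in N1 against 616 and 470.1 in WT. Of the defining markers, tp63.L was between 3.69 and 48.7 on all 4 arrays. The part of the epidermis in the rab25.S difference was not tested, and in bulk tissue more cells of a type and more RNA per cell cannot be told apart.

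**Figure D2:**
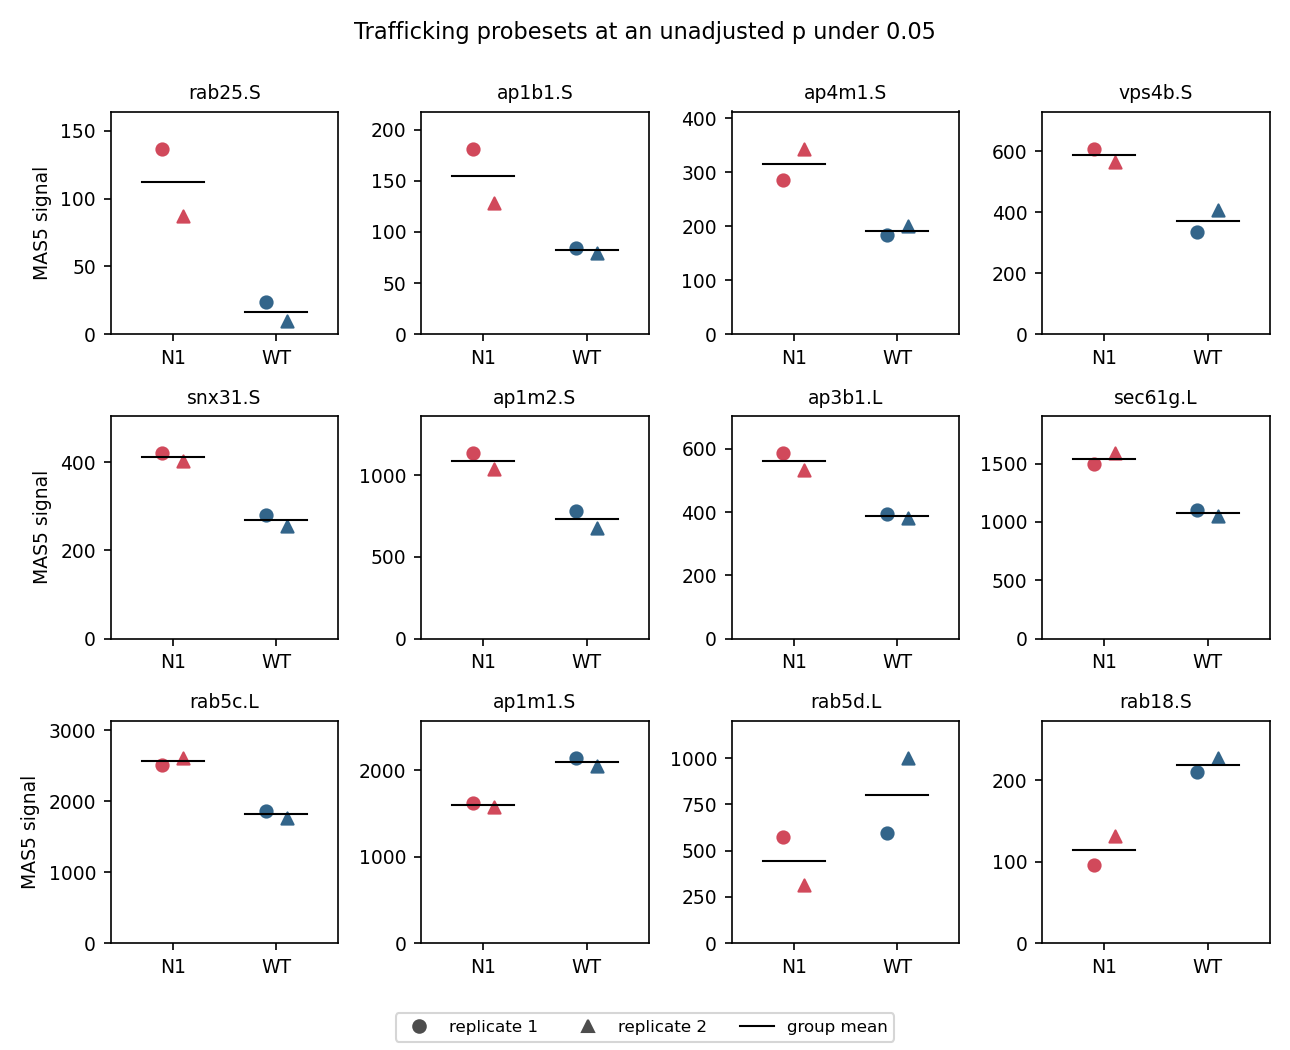
Signal on each of the 4 arrays (linear axes from 0), N1 left of WT, for the 12 member probesets at an unadjusted p under 0.05, with a bar at each group mean. In the 9 higher probesets both N1 points lie above both WT points, and in ap1m1.S, rab5d.L and rab18.S both lie below.

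Rab partners numbered 6 probesets and none passed at an unadjusted p under 0.05. The probeset of rab5if.L, named for its binding to Rab5, had 1262 and 1130.4 in N1 against 1310.4 and 1520.4 in WT (log2 -0.24, SE 0.19, adjusted p = 0.686). That of rab3ip.L, which activates Rab8 in mammals, had 600.0 and 706 in N1 against 407 and 723 in WT, with overlapping groups (log2 0.26, SE 0.29, adjusted p = 0.788).

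ER entry and the COPII coat were represented by 20 probesets of 15 genes, 1 of them higher and 0 lower at an unadjusted p under 0.05, with a class median of -0.04. The brightest of the class, sec61b.L, the beta subunit of the Sec61 channel, was level, with 5895 and 5022 in N1 against 5245 and 5584 in WT (log2 0.01, 95% interval -0.39 to 0.41, adjusted p = 0.99). The gamma subunit, sec61g.L, was higher on both N1 arrays. One probeset had 1496 and 1589 in N1 against 1105 and 1051 in WT (log2 0.52, SE 0.18, adjusted p = 0.349) and the other 3288 and 3579.8 in N1 against 2719 and 2976 in WT (log2 0.27, SE 0.17, adjusted p = 0.61).

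The outer COPII coat subunit sec13.S, which also sits in the nuclear pore, was lower on both N1 arrays, with 2188 and 2365 in N1 against 3056 and 2894 in WT (log2 -0.39, SE 0.17, adjusted p = 0.457). The inner coat subunit sec24a.S, which binds cargo, had 222 and 322 in N1 against 171 and 160.3 in WT (log2 0.69, SE 0.31, adjusted p = 0.458). Subunits of the same coat thus stood on both sides of 0, and 6 of the 12 probesets of COPII and Sar1 were positive. A probeset of sec63.S, an ER membrane chaperone partner of the channel, had 1118 and 2476 in N1 against 2188 and 2310.0 in WT, so that the N1 arrays were the lowest and the highest of the 4 (log2 -0.43, SE 0.33, adjusted p = 0.67). Its L copy was lower on both N1 arrays, with 558 and 615 in N1 against 779 and 697 in WT (log2 -0.33, SE 0.21, adjusted p = 0.605).

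COPI coatomer and Arf genes, which had 19 probesets of 12 genes, gave no member at an unadjusted p under 0.05 and a median of 0.01. The Golgi GTPase arf1.L had 465 and 417 in N1 against 332 and 321 in WT (log2 0.43, SE 0.23, adjusted p = 0.546). On its brightest probeset the gamma subunit copg1.L was higher on both N1 arrays, at 2813 and 2503 in N1 against 2277 and 2149 in WT (log2 0.26, SE 0.17, adjusted p = 0.628). Another copg1.L probeset also separated the groups (log2 0.32), while the remaining probeset overlapped, with 1432 and 1002 in N1 against 1128 and 917 in WT (log2 0.24, SE 0.23). The alpha subunit copa.L, with 3509.9 and 3655 in N1 against 4066 and 3481 in WT, overlapped (log2 -0.07, 95% interval -0.47 to 0.33). Of the 10 coatomer probesets 5 were positive and 5 negative, and every one was within 0.32 of 0 on the log2 scale.

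The p24 proteins (Tmed), receptors that ride in COPI and COPII vesicles, had 12 probesets of 6 genes, all at or above the median level and all with a 95% interval within 2-fold. The tmed9.S probeset had 1468 and 1583 in N1 against 1309.8 and 1138 in WT (log2 0.32, SE 0.19, adjusted p = 0.574). That of tmed10l.L had 566 and 496 in N1 against 409.8 and 413 in WT (log2 0.37, SE 0.22, adjusted p = 0.593). Both genes were higher on both N1 arrays, by 1.25-fold and 1.29-fold on the means. The 5 probesets of tmed2.L lay on both sides of 0, and the brightest by mean log2 signal had 3082 and 3831 in N1 against 3568 and 3092 in WT (log2 0.05, 95% interval -0.38 to 0.48).

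SNAREs, with 23 probesets of 13 genes, had 0 members at an unadjusted p under 0.05 in either direction by limma and a median of -0.03. The lysosomal and granule SNARE vamp8.L had 499 and 416 in N1 against 383 and 264 in WT (log2 0.52, SE 0.27, adjusted p = 0.534). The ER to Golgi SNARE sec22b.L was lower on both N1 arrays, with 493 and 597 in N1 against 675 and 736 in WT (log2 -0.38, SE 0.22, adjusted p = 0.568). Its S copy, below the median level, had 109 and 58.9 in N1 against 67.6 and 35.9 in WT, the opposite direction with overlap (log2 0.70, SE 0.54). Syntaxins had 4 of 12 probesets of 8 genes positive, where 55.9% of all probesets were, and stx19.S alone gave 4 of the 12, with 3 negative. The brightest probeset of the class, of stx19.S, had 1136 and 1583 in N1 against 1382 and 1399 in WT (log2 -0.05, 95% interval -0.54 to 0.43). The dim vamp2 probesets, named after their values were seen, lay on both sides of 0. The log2 differences for vamp2.L were -1.62 (SE 0.72, adjusted p = 0.457) on its brighter probeset and 0.47 on the other, and for vamp2.S 0.65 and -0.26.

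The Vps class held 26 probesets of 16 genes, with 1 higher and 0 lower at an unadjusted p under 0.05 and a median of 0.14 (0.04 under median centring). One of its genes, vps72, takes its symbol from a yeast sorting screen but encodes a subunit of a chromatin remodeller. The smallest p of the class was that of vps4b.S, the ATPase that takes ESCRT-III filaments apart, with 609 and 566 in N1 against 334 and 408 in WT. Both N1 arrays were higher (1.58-fold, log2 0.67, SE 0.23, adjusted p = 0.341), but a second vps4b.S probeset overlapped, with 356 and 526 in N1 against 379 and 405 in WT (log2 0.14, SE 0.26). The ESCRT-I subunit vps28.S had 707 and 551 in N1 against 460.5 and 467 in WT on one probeset (log2 0.43, SE 0.23, adjusted p = 0.539), and overlapping groups on another (log2 -0.17). Of 9 probesets of 6 genes for ESCRT subunits and Vps4, 8 were positive, with a median of 0.17 (7, with a median of 0.06, under median centring). Over all probesets 55.9% were positive without that centring, with a median of 0.07 (-0.04 under it). Here vps28.S and vps4b.S gave 2 probesets each and vps37b both its copies, so no direction is read from this count.

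The retromer, which returns receptors from endosomes to the Golgi, showed no common direction, with 4 of its 7 core probesets positive and 3 negative. The vps26a.L probeset had 1487 and 1844 in N1 against 1362 and 1568 in WT (log2 0.18, SE 0.20, adjusted p = 0.781). For vps29.S, 1 probeset had 331 and 565 in N1 against 575 and 624 in WT (log2 -0.47, SE 0.29) and the other 755 and 1378 in N1 against 1237 and 1468 in WT (log2 -0.40, SE 0.29). On both, N1 replicate 1 was the lowest of the 4 arrays while N1 replicate 2 lay just below the WT arrays or between them.

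Other members also differed between the N1 arrays. Among the 132 brighter members, N1 replicate 1 was more than 1.5-fold below N1 replicate 2 for 13 and above it for 7, including sec63.S and rab8a.S on the low side. These were 9.85% and 5.3% of the members, against 11% and 8.4% of all probesets at that level. WT replicate 1 was that far below WT replicate 2 for 3 members and above it for 4. These were 2.27% and 3.03% of the members, against 3.95% and 5.82% of all probesets at that level. N1 replicate 1 held the lowest signal for 32.6% of these members and the highest for 31.8%, against 29.1% and 30.9% of all probesets at that level. WT replicate 2 held the lowest for 31.1% of these members, against 25.4% of all probesets at that level. Pigment cell markers also set the N1 arrays apart, with summed signals of 4458.0 and 1926.0 in N1 against 1338 and 1422 in WT, and so did skeletal muscle markers, with 3436 and 2328 in N1 against 1998 and 1921 in WT. Both lists were also mostly higher in N1. Of 6 pigment probesets 5 were positive, with a median log2 difference of 1.65, and of 18 muscle probesets 15, with a median of 0.66. Over all probesets 55.9% were positive. Only 1 of the 18 muscle probesets reached the median level, and no probeset of either list passed the adjusted test. The part of pigment and muscle cells in the replicate or group differences was not tested.

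**Figure D3:**
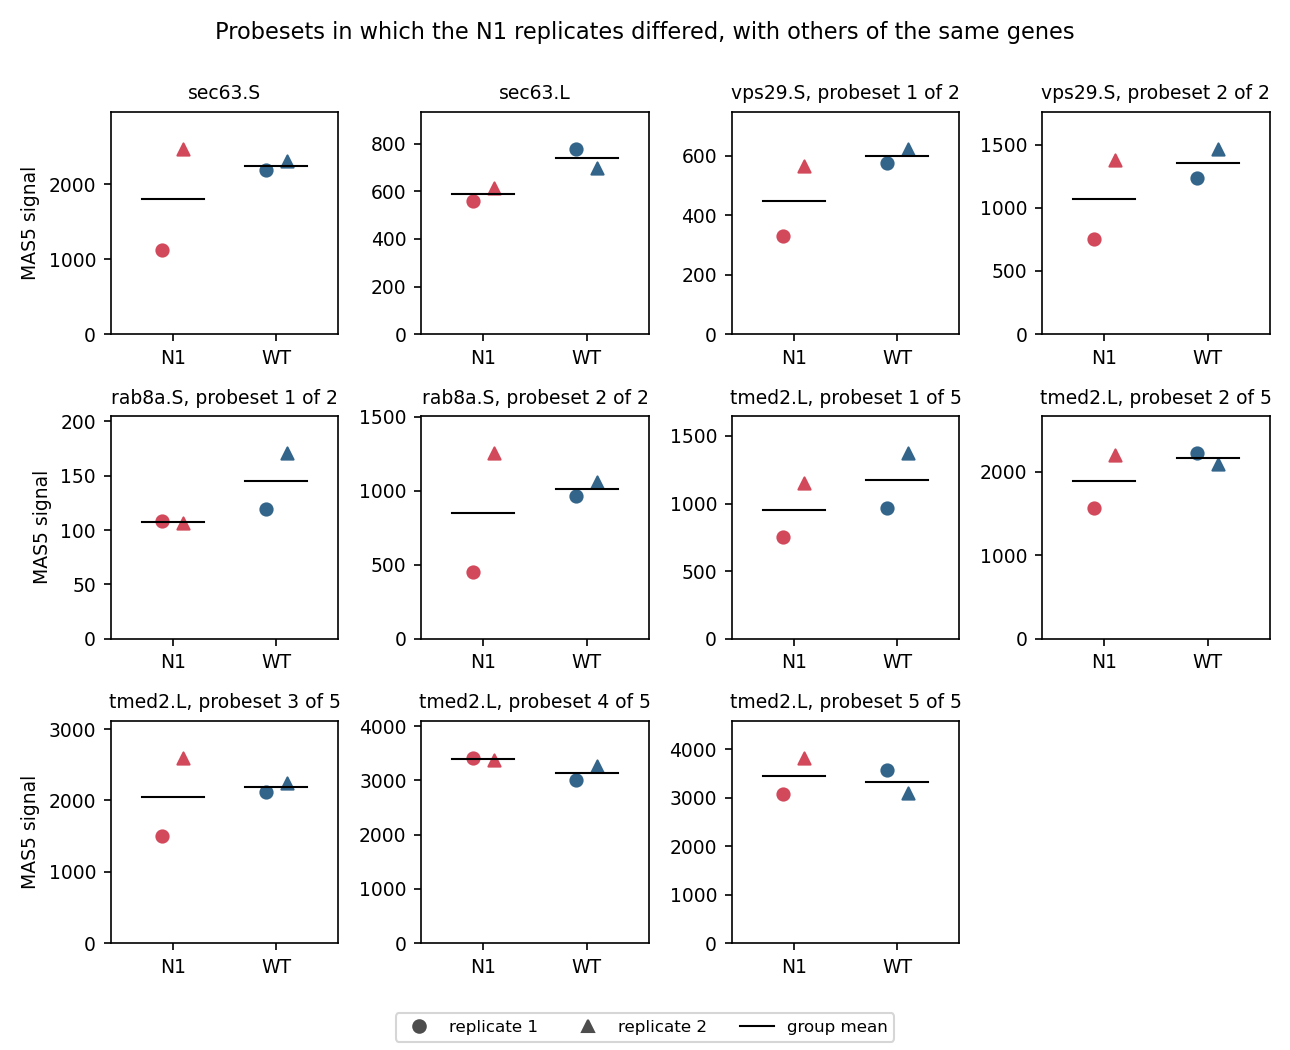
Signal on each of the 4 arrays (linear axes from 0), N1 left of WT, for the probesets of sec63, vps29.S, rab8a.S and tmed2.L, with a bar at each group mean. In sec63.S, both vps29.S probesets and the brighter rab8a.S probeset, N1 replicate 1 (circle) is the lowest of the 4 arrays, and N1 replicate 2 (triangle) lies near the WT arrays or above them.

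Sorting nexins, which bend endosomal membranes and choose cargo, had 24 probesets of 16 genes, with 1 higher and 0 lower at an unadjusted p under 0.05. That was snx31.S, a relative of Snx17, with 421 and 402 in N1 against 281 and 256 in WT. Both N1 arrays were higher (1.53-fold, log2 0.62, SE 0.24, adjusted p = 0.403), and its dimmer L copy had 94.7 and 194 in N1 against 97 and 63.7 in WT, with overlap (log2 0.79, SE 0.47). The retromer partners snx1.L and snx6.L were closer to level. The snx1.L probeset had 1099 and 994 in N1 against 802 and 926 in WT (log2 0.28, SE 0.20), and the brightest of snx6.L had 1919 and 2548 in N1 against 2463 and 2389.8 in WT (log2 -0.13, 95% interval -0.58 to 0.31).

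AP adaptors link clathrin and cargo, and of 22 probesets of 15 genes 4 were higher and 1 lower at an unadjusted p under 0.05, with a median of -0.01. Over all probesets 6.82% were higher and 4.29% lower, which is the background for the counts of every class. The medium subunits of AP-1 differed in direction. The ap1m2.S probeset, whose mammalian product is the epithelial form that sorts cargo to the basolateral surface, had 1134 and 1036 in N1 against 781 and 678 in WT (1.49-fold, log2 0.57, SE 0.20, adjusted p = 0.341). The ubiquitous form ap1m1.S, named after its values were seen, had 1614 and 1570.5 in N1 against 2144 and 2051 in WT (log2 -0.40, SE 0.17, adjusted p = 0.449). A second ap1m1.S probeset had 227 and 244 in N1 against 277 and 393 in WT (log2 -0.49, SE 0.28, adjusted p = 0.572). The groups did not overlap on any of these probesets, and the part of the epidermis in the ap1m2.S difference was not tested.

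Other adaptor subunits were mixed. The ap4m1.S probeset, for the medium subunit of a Golgi adaptor that acts without clathrin, had 285 and 344 in N1 against 184 and 199.7 in WT (log2 0.71, SE 0.27, adjusted p = 0.396). The endocytic ap2m1.L, the brightest adaptor by mean log2 signal, was level at 5709 and 5273 in N1 against 5775 and 5426 in WT (log2 -0.03, 95% interval -0.41 to 0.35, adjusted p = 0.967), and its S copy gave -0.07. For ap3b1.L, the beta subunit of the adaptor that supplies lysosomes and pigment granules, the probeset with the smallest p had 587 and 534 in N1 against 396 and 381 in WT (log2 0.53, SE 0.22, adjusted p = 0.426), and its other probesets gave 0.23 and 0.18. The ap1b1.S probesets gave 0.90 (adjusted p = 0.428) on the dimmer and -0.04 on the brighter.

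Homeologs were read on the same arrays, each by its brightest probeset. Both copies were measured for 21 genes, of which 14 had the same sign and 7 opposite signs. In the 11 pairs with both copies at or above the median level, 4 had opposite signs, namely copz1, sec22a, snx12 and vps72. For copz1, a coatomer subunit, the L copy had 1884 and 1629.9 in N1 against 1702 and 1407 in WT (log2 0.18, SE 0.19) and the S copy 216 and 261 in N1 against 308 and 249 in WT (log2 -0.22, SE 0.28). Of the 33 gene copies with several probesets, 17 had 1 sign throughout and 16 had both, as for rab5d.L and ap1b1.S. The only member outside the classes, sec14l1.L, a lipid-transfer protein relative, had 50.2 and 90.7 in N1 against 64.2 and 82.6 in WT (log2 -0.11, SE 0.48).

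**Figure D4:**
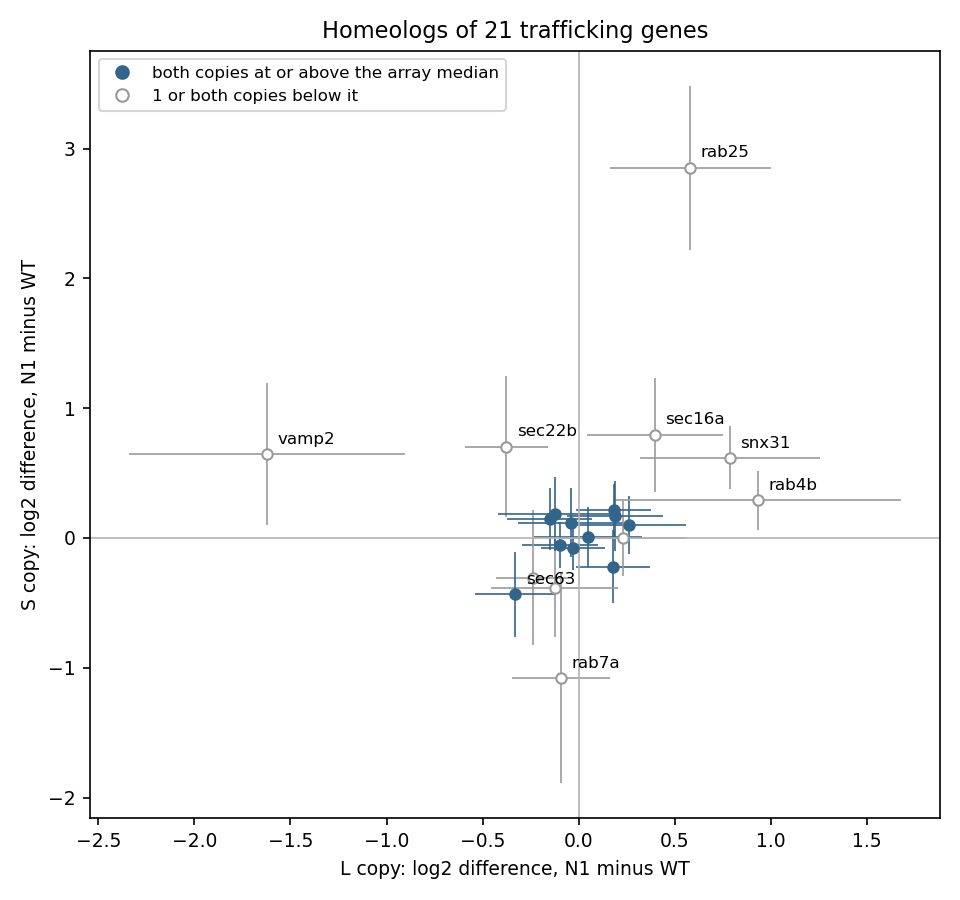
Log2 difference, N1 minus WT, of the L copy against that of the S copy for the 21 genes with both, with error bars of 1 SE, filled where both copies were at or above the median level. The filled points lie within 0.44 of 0 on both axes, and rab25 and vamp2, with both copies dim, lie farthest out.

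Neighbouring machinery, taken from lists rather than from the symbol rule, was also close to level. No probeset of the 4 lists passed the adjusted test by limma. At an unadjusted p under 0.05, 6.82% of all probesets were higher and 4.29% lower. Among those at or above the median level these shares were 8.31% and 7.02%. They are the background for the counts of these lists and of the cell marker lists. Among 37 probesets of tethers, fusion factors and other SNAREs 1 was higher and 1 lower at an unadjusted p under 0.05, both dim SNAP proteins (snap23.L and snap25.L). In 59 probesets of clathrin, GTPase regulators and cargo receptors 3 were higher and 2 lower. The ESCRT-III subunit chmp1a.S had 385 and 498 in N1 against 261 and 129 in WT (log2 1.26, adjusted p = 0.252), and chmp4b.L, of the same complex, had 726 and 569.8 in N1 against 419.9 and 408 in WT (log2 0.64, adjusted p = 0.36). The Rab recycling factor gdi2.L was lower, with 2378 and 2320.2 in N1 against 3191 and 3058 in WT (log2 -0.41, adjusted p = 0.419).

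Signal recognition and ER translocation genes gave 0 higher and 1 lower of 53 probesets. The lower was get3.S, which delivers tail-anchored proteins such as SNAREs to the ER, with 364 and 305 in N1 against 549 and 565 in WT (log2 -0.74, adjusted p = 0.288). ER folding and unfolded protein response genes gave 2 higher and 1 lower of 51. The protein disulfide isomerase p4hb.L had 9289.8 and 7944 in N1 against 6032 and 6595 in WT (log2 0.45, adjusted p = 0.403), and pdia6.S, of the same family, had 833 and 1004 in N1 against 1166 and 1479 in WT (log2 -0.52, adjusted p = 0.419). The lists had median differences of 0.08, 0.03, -0.10 and 0.02 in the order given, beside 0.07 for all probesets and -0.004 for those at or above the median level. In the same order 23 of 37, 42 of 59, 48 of 53 and 42 of 51 list probesets reached that level.

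Other marker lists differed between the arrays as well. Red cell markers had summed signals of 46053 and 55645 in N1 against 20996 and 16532 in WT, with all 5 probesets higher at an unadjusted p under 0.05 and 2 past the adjusted test. Cartilage markers summed to 1588 and 1774 in N1 against 2974 and 2182 in WT, with 3 of 7 probesets lower at an unadjusted p under 0.05. Leucocyte markers (2593 and 2566 in N1 against 2247 and 2162 in WT) and limb bud mesenchyme markers (4718 and 5938 in N1 against 5242 and 4837 in WT) had sums nearer to level. On every array most of the mesenchyme sum was the signal of hand2.S, and 5 of the 12 mesenchyme probesets reached the median level. By probeset, 7 of 9 leucocyte probesets were positive with a median log2 difference of 0.37, and 8 of 12 mesenchyme probesets with a median of 0.14. For cartilage 1 of 7 was positive, with a median of -0.19. Goblet and mucous cell markers, of which agr2 was the main one measured, summed to 1811 and 2279 in N1 against 1396 and 792 in WT. The part of these cells in the member differences was not tested.

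With 2 arrays a group, an exact permutation test on any single probeset cannot go below a two-sided p of 0.333, so the tests rest on limma's shared estimate of the spread. The number of arrays limits the precision: the median SE of a member was 0.27 on the log2 scale, and 0.23 for the brighter ones.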

How the data were processed

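RNA from each pool was labelled with the 2-cycle protocol and hybridised to an Affymetrix Xenopus laevis array. The deposited signal intensities are linear MAS5 values that the authors made in GCOS; software versions are not given in the sources used here. Detection calls were not used here.

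Of 15611 probesets, 120 controls were left out. Symbols came from the platform annotation (9304 probesets with 1 symbol, 195 with several, 5992 with none). Gene IDs of 192 members matched RefSeq (Xenopus_laevis_v10.1) and no symbol differed. The 4 matching probesets with several symbols and the 2 of rab27a were left out.

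Log2 signals were fitted with limma 3.58.1 (lmFit, then eBayes allowing for a variance trend; R 4.3.3) on all 4 arrays, no added constant, Benjamini-Hochberg over all 15491 probesets, threshold 0.05. The procedure was tested on simulated data. Ratios are of mean linear signals. Tables were made with Python 3.11.15 and pandas 2.3.3.

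Named members were those past the adjusted threshold, the brightest and the 2 with the smallest p in each class at or above the median level, and members over 2-fold at that level without overlap. Others are said to have been chosen after their values were seen, as were sec24a.S, sec63.S, sec63.L, rab8a.S, vps29.S, ap3b1.L, ap1b1.S, rab9a.S, rab5a.L, rab4b.S, rab1a.L and copz1. So were rab5b.L, rab7a.L and rab7a.S. The members, complexes and lists were chosen with earlier results of these data known. Alternatives were another constant, filter, normalisation or variance model, 1 probeset per gene, the replicate block and each array left out.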

Additional observations from a re-analysis of the deposited data

How the results depend on the processing

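No member passed the adjusted test under the added constants, 1 probeset per gene, the level filter, median centring, quantile normalisation or without the variance trend. Members higher at an unadjusted p under 0.05 numbered 9, against 3 under median centring and 5 without the variance trend. Members lower numbered 3, against 1 with only probesets at or above the median level, 7 under median centring and 5 under quantile normalisation. In either direction 6.22% of members and 11.1% of all probesets passed in the main fit. Under median centring these shares were 5.18% and 11.6%, and under quantile normalisation 5.70% and 10.7%. Without the variance trend they were 3.63% and 8.85%, and at or above the median level 6.82% and 14.7%. Median centring moved the median of all probesets to -0.04 (0.07 before), and with it the share of higher among those passing, to 30.0% of members and 42.6% of all probesets, against 75.0% and 61.4% before; quantile normalisation gave 54.5% and 53.3%. Leaving out 1 array gave 0 to 2 adjusted calls, 2 to 12 higher and 0 to 18 lower members. The 2 calls (rab8a.S, log2 -1.17, adjusted p 0.0341; sec63.S, log2 -1.01, adjusted p 0.0280) and the 18 lower members came without N1 replicate 2, when 334 probesets passed overall. The median log2 difference of members less that of all probesets was 0.012 in the main fit. It was -0.009 without WT replicate 1 and -0.019 without WT replicate 2. Without N1 replicate 1 it was 0.076, and without N1 replicate 2 it was -0.071.

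The replicate numbers did not pair the samples (correlation of deviations 0.028 for each number). With the replicate block 1 member passed, rab25.S (adjusted p 0.0347), and 200 probesets overall against 19 without it.

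Of 309 values of the 26 named members under 12 alternatives, 296 kept direction and side of the threshold and 13 turned. Under median centring sec61b.L gave -0.10 and tmed2.L -0.060, and under quantile normalisation stx19.S gave 0.0035. With single arrays left out the log2 difference ran from -0.11 to 0.12 for sec61b.L, -0.11 to 0.21 for tmed2.L, -0.29 to 0.19 for stx19.S, -0.34 to 0.071 for snx6.L, -0.086 to 0.028 for ap2m1.L, -0.15 to 0.68 for rab3ip.L and -0.18 to 0.041 for copa.L. The cause was not tested.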
